A study of Arabidopsis thaliana with 7 samples.

Results

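The unexposed state of atnp01 and atnp02, a pair of Arabidopsis thaliana lines selected for tolerance of cadmium sulfide quantum dots (CdS QDs), was set against that of wild type (WT). CdS QDs are crystals of a cadmium salt so small that they count as nanomaterial. The members were the 3 arrays of plants that had received no quantum dots, of the 7 arrays in the study. They comprised 1 array of atnp01 at 0 mg/L, 1 of atnp02 at 0 mg/L and 1 of WT at 0 mg/L. The 4 other arrays held atnp01, atnp02 and WT at 80 mg/L, and WT at 40 mg/L. All lines were of the accession Ler-0, and all RNA came from material labelled seedling. Plants of every group had 14 days on Murashige and Skoog medium and then 21 days on the same medium at their dose, at 24 °C, 30% relative humidity and a 16 h photoperiod. Each extraction used 0.1 g of plant material. The genes disrupted in atnp01 and atnp02, the number of independent lines behind each and the number of plants per extract are not stated in the labels. With 1 array of each mutant at a dose, what belongs to a selected mutation and what belongs to other changes in the plants used cannot be told apart.

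Plants take cadmium up through carriers for essential metals and limit its harm by binding it to thiol compounds made from glutathione, by storing it in the vacuole and by holding it in the cell wall. Cadmium also disturbs chloroplasts, whose own small genome encodes core subunits of the photosystems, of the cytochrome complex, of the ATP synthase and of the plastid ribosome, while most other chloroplast proteins are encoded in the nucleus. A line that tolerates cadmium can differ from WT before any exposure or only in its response to it. The unexposed arrays address the first of these.

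Levels are the deposited log2 values, on which 1 unit was read as 2-fold. On the annotation used here 13355 genes had a probe set, and 1859 of them (13.9%) reached log2 6 on at least 1 of the 3 unexposed arrays. Counts below are over these 1859 genes, and a gene dimmer than that on all 3 arrays was not counted. Each group had 1 array, so a difference between arrays has neither an error nor a p-value, and precision is limited by how few arrays there are. Both mutants were compared with the same WT array, so anything peculiar to that array enters both differences. The mutant minus WT differences at 80 mg/L share no array with those at 0 mg/L and are given beside them. Over all 7 arrays the medians of all probe sets lay between 3.39 and 3.47. Activase RCA, a leaf gene, was at 11.61, 11.62 and 11.61 in unexposed atnp01, atnp02 and WT. Of the root markers, the beta-glucosidase PYK10 was at 10.64, 10.70 and 10.49 and the root hair expansin EXPA7 at 1.31, 1.3 and 1.53 on those arrays, and no flower or seed marker was on the annotation.

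Unexposed mutants and WT had very similar profiles. The atnp01 difference from WT was within 0.5 for 96.3% of the genes and the atnp02 difference for 98.0%, with SDs across genes of 0.26 and 0.21. The mutants differed from each other to a like extent, with an SD of 0.21 and 97.2% of genes within 0.5. In atnp01, 11 genes (0.592%) were at least 2-fold from WT, of which 3 (0.161%) were higher and 8 (0.43%) lower. In atnp02 there were 4 such genes (0.215%), 3 (0.161%) higher and 1 (0.0538%) lower. By sign alone, whatever the size, 639 genes were above WT in both mutants, 463 below it in both, 708 on opposite sides, and 49 had a difference of exactly 0 in at least 1 mutant.

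**Figure D1:**
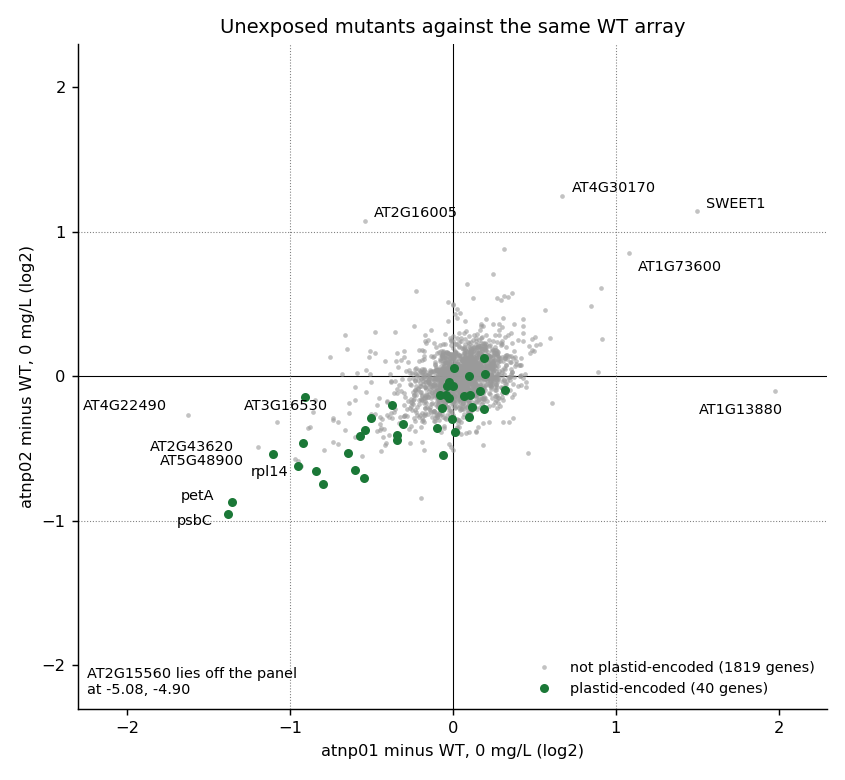
Each point is 1 of 1859 genes, with its atnp01 minus WT difference at 0 mg/L (log2) across and its atnp02 minus WT difference at 0 mg/L (log2) up, and dotted lines at a 2-fold difference. Most genes lie near the origin, SWEET1 lies above 1 on both axes, AT1G13880 on the atnp01 axis alone, and several plastid-encoded genes (green) lie at the lower left. Both axes use the same WT array, which by itself places points along the diagonal.

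The genes 2-fold from WT in the same direction in both mutants were 2 in all, AT2G15560 on the lower side (0.0538%) and SWEET1 on the higher side (0.0538%). AT2G15560 was at 2.05 in atnp01 and 2.24 in atnp02, against 7.13 in WT, differences of -5.08 and -4.90. In the mutants it was among dim probe sets, above 37.1% and 38.5% of all probe sets on the atnp01 and atnp02 arrays, whereas on the WT array it was above 92.5% of them. The size of the difference is therefore not exact. At 80 mg/L it was at 1.95 in both mutants and at 7.23 in WT, and WT at 40 mg/L had 7.02, so that all 4 mutant arrays lay far below all 3 WT arrays. The nearest measured gene along the chromosome that reached log2 6, AT2G15580, stood 2 places on and had 7.30 in atnp01, 7.34 in atnp02 and 7.37 in WT without exposure. No role is given here for AT2G15560.

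SWEET1 encodes a glucose transporter of the plasma membrane. It was at 7.08 in atnp01 and 6.72 in atnp02, against 5.58 in WT, differences of 1.5 and 1.14. On the exposed arrays it was at 7.20 in atnp01 and 6.86 in atnp02, against 5.83 in WT, and WT at 40 mg/L had 6.19. All mutant arrays were again on one side of all WT arrays. In bulk material, fewer cells of a type and less RNA per cell cannot be told apart, here and for the genes below.

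AT1G13880, for which the gene table lists the synonym ELM2, was the gene with the highest atnp01 difference and did not have it in atnp02. It was at 6.84 in atnp01, against 4.77 in atnp02 and 4.87 in WT. The levels with exposure were 7.03 in atnp01, 4.82 in atnp02 and 4.87 in WT, and WT at 40 mg/L had 4.71. Both atnp01 arrays thus stood about 2 log2 units above the 5 others.

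**Figure D2:**
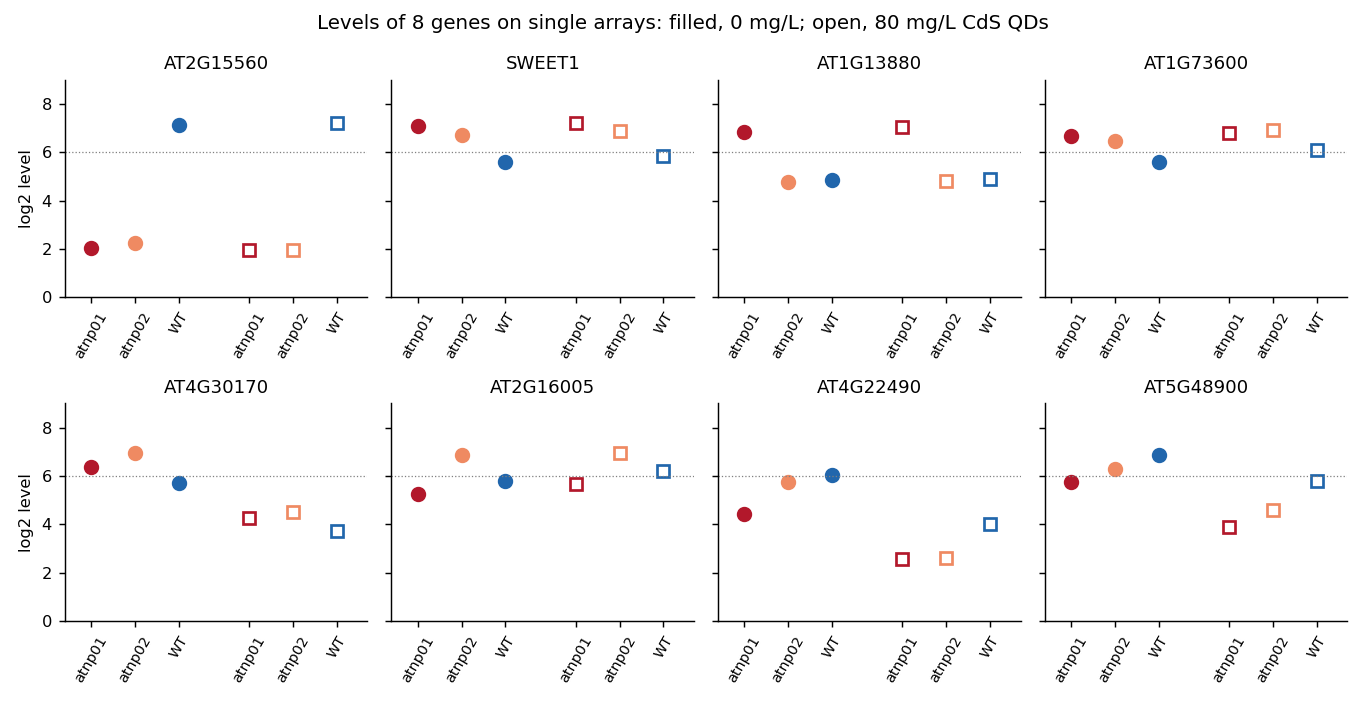
Log2 levels of 8 genes on 6 single arrays, with atnp01, atnp02 and WT in that order at 0 mg/L (filled) and again at 80 mg/L (open), and a dotted line at log2 6. AT2G15560 is low in both mutants and SWEET1 high in both at either dose, AT1G13880 is high in atnp01 alone, and AT4G22490 and AT5G48900 lie lower at 80 mg/L than at 0 mg/L in every line.

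Line differences common to 0 and 80 mg/L can be tested across the 6 arrays at these doses, with line and dose as additive terms in limma. The error of this fit is how far the line differences vary with dose, not the spread among plants, and it rests on 2 residual degrees of freedom. Of 2106 genes, 3 (0.142%) passed an adjusted p of 0.05 for atnp01, and 1 (0.0475%) for atnp02. Without the atnp02 arrays, 15 genes passed for atnp01, and without the atnp01 arrays 2 passed for atnp02. At an unadjusted p under 0.05 there were 199 and 145 genes. SWEET1 rose in both lines, by 1.43 in atnp01 (SE 0.09, limma, Benjamini-Hochberg adjusted p = 0.0017) and by 1.09 in atnp02 (SE 0.09, limma adjusted p = 0.0108). The atnp01 call held under all 8 alternatives, with adjusted p between 0.00145 and 0.00925 in limma, while the atnp02 call was lost with no floor on the level (limma adjusted p = 0.0709) and held under 7. AT1G13880 rose by 2.07 in atnp01 (SE 0.14, limma adjusted p = 0.00177), and its atnp02 value was -0.08 (limma adjusted p = 0.916). AT3G49220, of the pectin methylesterase family that modifies cell wall pectin, fell by 0.86 in atnp01 (SE 0.10, limma adjusted p = 0.0373). Its levels without exposure were 6.41 in atnp01 and 6.84 in atnp02, against 7.14 in WT, and its differences at 80 mg/L were -0.98 in atnp01 and -0.52 in atnp02. The AT3G49220 call was lost with no floor (limma adjusted p = 0.136) and with no intensity trend in the error (limma adjusted p = 0.0671).

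AT2G15560 did not pass this test as planned, with coefficients of -5.18 in atnp01 (SE 1.38, limma adjusted p = 0.26) and -5.09 in atnp02 (limma adjusted p = 0.46). Its call turned on how the error was set. With no intensity trend it passed for atnp01 at a limma adjusted p of 4.9e-05 and for atnp02 at 5.41e-05, and it passed in 5 of 8 alternatives for atnp01 and 4 of 8 for atnp02.

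Of the other genes 2-fold higher without exposure, AT1G73600, a phosphoethanolamine N-methyltransferase of the route to phosphocholine, was at 6.68 in atnp01 and 6.46 in atnp02, against 5.61 in WT. With exposure it was at 6.79 in atnp01 and 6.93 in atnp02, against 6.10 in WT, so the mutant arrays were above the WT array at each dose, while its limma adjusted p was 0.064 for atnp01 and 0.143 for atnp02. AT4G30170, a class III peroxidase of the kind secreted to the cell wall, was at 6.37 in atnp01 and 6.95 in atnp02, against 5.70 in WT. Its level was lower throughout at 80 mg/L, with 4.27 in atnp01 and 4.51 in atnp02, against 3.72 in WT, and the mutants were again above WT of the same dose. The other class III peroxidase that reached log2 6, AT2G37130, was below WT in atnp01 (-0.35) and above it in atnp02 (0.31).

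The mutants differed from each other by 2-fold or more in 3 genes (0.161%). AT1G13880 was the gene lower in atnp02, by -2.07. AT2G16005, of the MD-2-related lipid-recognition family, was at 6.88 in atnp02, against 5.26 in atnp01, with WT between them at 5.81 (differences from WT of 1.07 in atnp02 and -0.54 in atnp01). The same order was seen at 80 mg/L, where atnp02 had 6.94, atnp01 5.65 and WT 6.20, although WT at 40 mg/L lay at 3.92, below all of these. AT4G22490, of a family of seed storage and lipid transfer proteins, was at 5.76 in atnp02, against 4.40 in atnp01, with WT at 6.03, so that atnp01 alone was 2-fold below WT (-1.63). That separation of the mutants was not present at 80 mg/L, where atnp02 had 2.62 and atnp01 2.56, both below WT at 4.02. Both mutant levels were dim there, above 41.9% of probe sets in atnp02 and 42.1% in atnp01. A difference between such levels has no exact size.

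Genes 2-fold lower in atnp01 included AT5G48900, of the pectate lyase family, which was at 5.74 in atnp01 and 6.29 in atnp02, against 6.85 in WT. At 80 mg/L it stood further below WT, at 3.90 in atnp01 and 4.59 in atnp02, against 5.78 in WT (limma adjusted p = 0.064 for atnp01). A pair of others had the opposite sign at 80 mg/L. AT2G43620, of the chitinase family, was at 5.70 in atnp01 and 6.40 in atnp02, against 6.89 in WT, but with exposure at 3.83 in atnp01 and 3.91 in atnp02, against 3.59 in WT. AT3G16530, of the legume lectin family, was at 5.58 in atnp01 and 6.34 in atnp02, against 6.66 in WT, but with exposure at 7.49 in atnp01 and 7.50 in atnp02, against 7.03 in WT. For both of these genes the exposed mutants were slightly above exposed WT. The remaining 3 genes 2-fold lower in atnp01 were encoded in the plastid and are described with that group.

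At a smaller limit of 1.5-fold, atnp01 had 10 genes higher (0.538%) and 39 lower (2.1%) than WT, and atnp02 had 9 higher (0.484%) and 11 lower (0.592%). In either direction that is 2.64% of the genes in atnp01 and 1.08% in atnp02. Both mutants were past it together in 4 genes on the higher side (0.215%) and 9 on the lower side (0.484%). With exposure, the same limit was passed by 11 genes higher (0.592%) and 61 lower (3.28%) in atnp01, and by 21 higher (1.13%) and 45 lower (2.42%) in atnp02. Of the 39 lower in atnp01, 29 were not plastid-encoded, and these could be read again on the arrays at 80 mg/L. There 27 of the 29 were again below WT, and 24 were again 1.5-fold lower, against 54.3% and 3.35% of all 1819 genes that were not plastid-encoded. Their median difference was -0.74 without exposure and -1.11 at 80 mg/L. Of the 10 genes higher in atnp01, 8 were above WT at 80 mg/L and 3 by 1.5-fold, against 43.7% and 0.55% of these genes. For atnp02 the counts were smaller, with 7 of 9 higher genes above WT at 80 mg/L and 4 by 1.5-fold, against 40.0% and 1.15%. Its 4 lower genes outside the plastid were all below WT again, 3 of them by 1.5-fold, against 58.1% and 2.25%. Some genes entered these counts through a single array. Of the 29, AT4G22490 and CSLC04 are examples that reached log2 6 in WT alone, and such genes were not set apart.

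Some of these genes are named here after their values were seen. AT5G63180, also of the pectate lyase family, differed from WT by -0.88 in atnp01 and -0.35 in atnp02. AT5G45670, of the GDSL lipase family, differed by -0.97 in atnp01 and -0.57 in atnp02, and CSLC04, a synthase of the xyloglucan backbone, by -0.85 in atnp01 and -0.16 in atnp02. At 80 mg/L AT5G63180 differed by -1.28 in atnp01 and -0.92 in atnp02, and AT5G45670 by -1.31 and -0.49. CSLC04 was not 1.5-fold lower there, with -0.06 in atnp01 and -0.38 in atnp02. On the higher side, AT2G21045, which encodes the arsenate reductase known as HAC1, was at 6.55 in atnp01 and 6.25 in atnp02, against 5.64 in WT, and at 80 mg/L its differences were 0.22 in atnp01 and 0.32 in atnp02.

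The genes lower in unexposed atnp01 were mostly genes with a lower level after exposure in the other line, a comparison in which no array is shared. Those that reached the floor in WT alone are among them. In atnp02, 26 of the 29 were lower at 80 than at 0 mg/L, 18 of them by 2-fold, with a median of -1.28. Of all genes not plastid-encoded, 59.6% were lower in that comparison and 4.51% by 2-fold, with a median of -0.09. EXPA8 shows the pattern, with 5.65 in atnp02 at 80 mg/L, against 7.79 in atnp02 at 0 mg/L. The genes on the higher side were few. Of the 10 genes higher in unexposed atnp01, 4 were lower at 80 than at 0 mg/L in atnp02, 3 of them by 2-fold. Their median was 0.09, and of all genes not plastid-encoded 59.6% were lower and 4.51% by 2-fold. Of the 9 higher in unexposed atnp02, 6 were lower at 80 than at 0 mg/L in atnp01, 4 of them by 2-fold. Their median was -0.83, against -0.11 for all genes not plastid-encoded, of which 61.1% were lower and 5.0% by 2-fold.

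**Figure D3:**
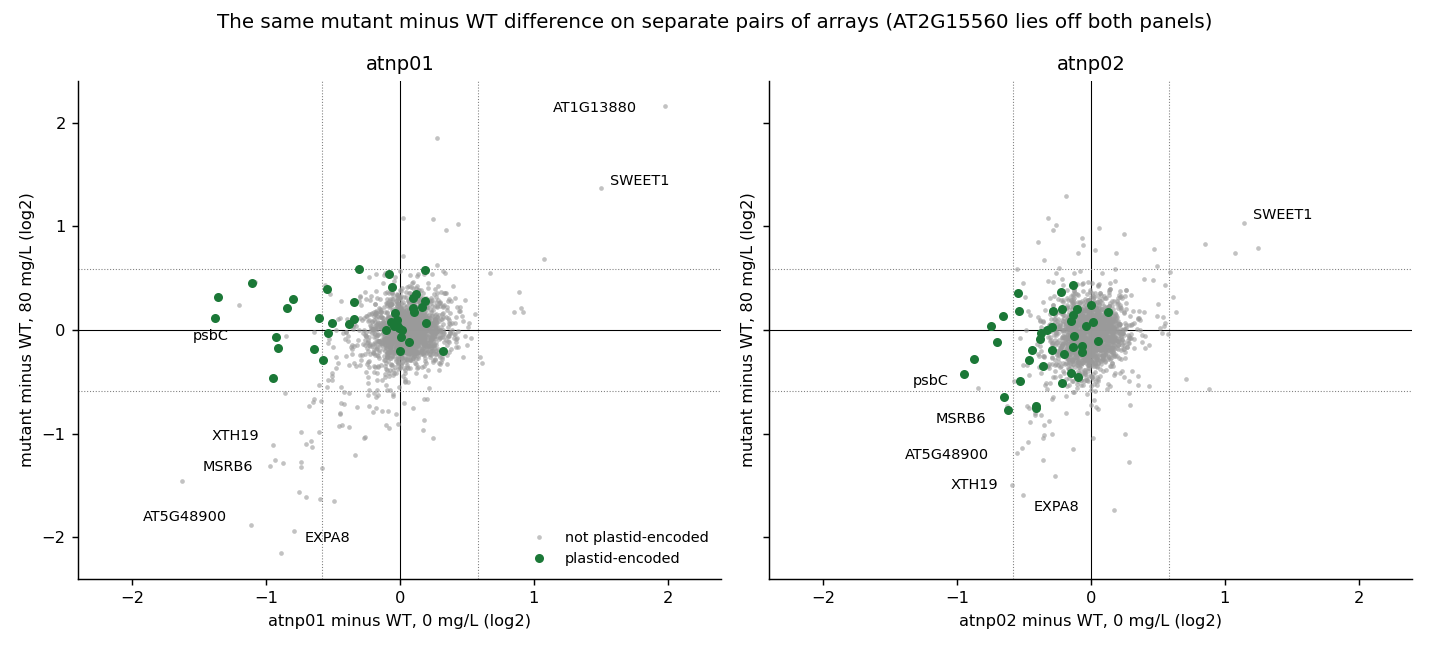
For atnp01 (left) and atnp02 (right), each point is a gene, with the mutant minus WT difference at 0 mg/L (log2) across and that at 80 mg/L (log2) up, from separate pairs of arrays, and dotted lines at 1.5-fold. SWEET1 lies at the upper right of both panels, and EXPA8, XTH19 and MSRB6 at the lower left. Of the 10 plastid-encoded genes (green) that were 1.5-fold lower at 0 mg/L in atnp01, none was so at 80 mg/L in atnp01. In atnp02 at 80 mg/L, rpl16 (-0.78) and rpoC1 (-0.65) of these genes were 1.5-fold below WT.

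Over the 1859 genes, the differences without exposure and those at 80 mg/L had a Pearson r of 0.505 for atnp01 and 0.395 for atnp02, and a Spearman rho of 0.157 and 0.139. These correlations are across genes, which are not independent replicates. Without AT2G15560 r was 0.392 for atnp01 and 0.216 for atnp02. Over the 40 plastid-encoded genes r was 0.0925 for atnp01 and 0.325 for atnp02.

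Plastid-encoded genes made up 10 of the 39 genes that were 1.5-fold lower in atnp01 and 7 of the 11 in atnp02. Of 69 on the annotation, 40 reached log2 6, and 27 of these were below WT in atnp01 and 36 in atnp02, against 36.9% and 50.2% of the other 1819 genes. Their median difference was -0.07 in atnp01 and -0.29 in atnp02, against 0.05 and -0.0011 for the other genes. In atnp01 10 of the 40 were 1.5-fold lower, against 1.59% of the other genes, and in atnp02 7, against 0.22%. A gene dim in the mutants could enter these counts through WT alone, so the full set was read too. Over all 69, dim ones included, 54 were below WT in atnp01 and 62 in atnp02, with medians of -0.28 in atnp01 and -0.29 in atnp02. The share of other genes without a floor was not taken, so the counts over the 69 have no background beside them.

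The plastid genes named beyond psbC, petA and rpl14 were chosen after their values were seen. Among photosystem genes, psbC, which encodes the CP43 antenna protein of photosystem II, was at 6.68 in atnp01 and 7.11 in atnp02, against 8.06 in WT. The photosystem II subunit gene psbZ was at 8.45 in atnp01 and 8.64 in atnp02, against 9.29 in WT, and psaB, for a reaction centre protein of photosystem I, was at 8.20 in atnp01 and 8.97 in atnp02, against 9.11 in WT. Both mutants were below WT in each of these, but psaB was close to WT in atnp02. The neighbouring genes psbE and psbF, for cytochrome b559, were at 9.01 and 10.10 in atnp01, at 8.94 and 10.08 in atnp02, and at 9.01 and 10.12 in WT, and psbL was slightly above WT in both mutants (0.19 in atnp01 and 0.13 in atnp02). The plastid genes thus did not shift as a block.

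Of the electron transport and ATP synthase genes, petA, for cytochrome f, was at 5.94 in atnp01 and 6.43 in atnp02, against 7.30 in WT. The ATP synthase genes atpA, atpB and atpE differed by -0.55, -0.54 and -0.51 in atnp01 and by -0.70, -0.37 and -0.29 in atnp02. The gene for the large subunit of Rubisco, rbcL, differed by -0.64 in atnp01 and -0.53 in atnp02, and the genes for subunits of the plastid NDH complex were spread. Among these, ndhJ was at 5.68 in atnp01 and 6.14 in atnp02, against 6.60 in WT, whereas ndhA, ndhC, ndhD and ndhI differed by 0.20, -0.02, 0.01 and 0.10 in atnp01 and by 0.02, -0.15, 0.06 and 0.00 in atnp02. A further NDH gene, ndhK, did not reach log2 6 and was at 3.64 in atnp01 and 4.49 in atnp02, against 5.16 in WT. For the gene expression machinery, the ribosomal protein gene rpl14 was at 5.64 in atnp01 and 6.21 in atnp02, against 6.74 in WT, and rps19 and rpoC1, for a ribosomal protein and an RNA polymerase subunit, differed by -0.80 and -0.60 in atnp01 and by -0.75 and -0.65 in atnp02. The ribosomal genes rps4 and rpl36 were at or above WT in atnp01 (0.17 and 0.32) and slightly below it in atnp02 (-0.10 and -0.09).

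**Figure D4:**
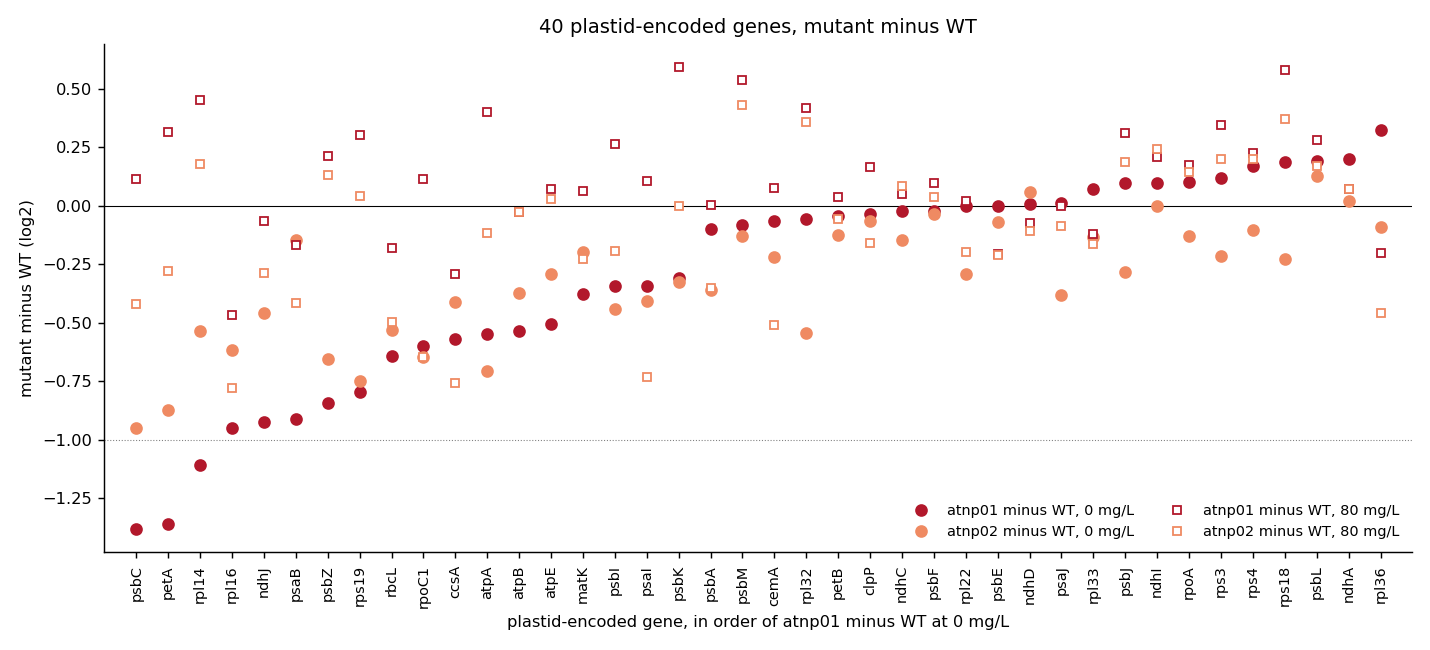
Mutant minus WT differences (log2) of the 40 plastid-encoded genes that reached log2 6, for atnp01 and atnp02 at 0 mg/L and at 80 mg/L, each value from a pair of single arrays. At 0 mg/L the values run down to -1.38 in atnp01 and -0.95 in atnp02, and at 80 mg/L the lowest are -0.47 in atnp01 and -0.78 in atnp02.

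With exposure, 10 of the 40 plastid genes were below WT in atnp01 and 23 in atnp02, with medians of 0.10 and -0.10. Of the other 1819 genes 54.3% were below WT in atnp01 and 58.1% in atnp02 there, so the atnp02 share of the 40, 57.5%, was that of the other genes, and the atnp01 share, 25%, was below it. Over all 69 genes, 31 were below WT in atnp01 and 51 in atnp02, with medians of 0.0023 and -0.29, again with no share of other genes without a floor. Of the 10 that were 1.5-fold lower in unexposed atnp01, 4 were below WT and none by 1.5-fold, nor was any other of the 40. Of the 7 in atnp02, 5 were below WT again and 2 by 1.5-fold, against 10% of the 40. For psbC the exposed levels were 9.83 in atnp01 and 9.29 in atnp02, against 9.71 in WT, and for petA they were 8.60 in atnp01 and 8.01 in atnp02, against 8.29 in WT. These genes were higher with exposure in every line. All 10 plastid genes lower in unexposed atnp01 were at least 2-fold higher at 80 than at 0 mg/L in atnp02, against 32.5% of the 40, and all 7 lower in unexposed atnp02 were so in atnp01, against 45.0%.

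Technical measures of the same arrays were as follows. The 12 poly-A spike-in probe sets with AFFX-r2 names averaged 0.27 above WT in atnp01 and -0.12 from WT in atnp02. The 9 hybridization controls with such names averaged 0.02 and -0.10. In atnp01 these spike-ins ran from -0.02 to 0.77. The spike-in probe sets without r2 in their names, which were not averaged, ran from -0.27 to 0.30 there. The level of a 3′ probe set less that of the 5′ one grows as RNA is degraded or copied incompletely. For actin, on the AFFX-r2-At probe sets, it was 1.77 in atnp01 and 1.97 in atnp02, against 2.05 in WT. For GAPDH it was 0.22 in atnp01 and 0.34 in atnp02, against 0.58 in WT, and for ubiquitin 0.51 and 0.54, against 0.54. With exposure the actin and GAPDH values of these probe sets were above WT instead. The actin value was 2.17 in atnp01 and 2.06 in atnp02, against 1.91 in WT. The GAPDH value was 0.38 in atnp01 and 0.39 in atnp02, against 0.26 in WT. The ubiquitin value was then 0.49 in atnp01 and 0.52 in atnp02, against 0.59 in WT. With exposure, the AFFX-Athal probe sets put the mutants on the same side of WT for GAPDH only. Their actin 3′ levels were 8.86 in atnp01 and 9.05 in atnp02, against 8.93 in WT, and the 5′ levels 4.24 and 4.28, against 3.99. Their ubiquitin 3′ levels were 10.67 and 10.71, against 10.54, and the 5′ levels 9.06 and 9.16, against 9.01. The mutants were thus below WT for actin and above it for ubiquitin there. The part of these differences in the plastid values was not tested.

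Gene lists drawn from the biology of cadmium and stress were sparsely covered. Of 361 entries in 25 lists, 84 were on the annotation and 38 reached log2 6, and 12 lists had no member there, among them iron deficiency, jasmonate and ethylene defence, heat shock and the circadian clock. Over all 1859 genes the median difference from WT was 0.05 in atnp01 and -0.0026 in atnp02, and the lists are read against that.

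Of the metal and thiol genes, 3 of 17 entries were on the annotation, and all 3 reached log2 6. The metallothionein gene MT1C, whose protein binds metals through cysteines, was at 10.29 in atnp01 and 10.06 in atnp02, against 9.80 in WT. Its differences of 0.48 and 0.26 were the highest of that list and below 1.5-fold. The glutathione reductase genes GR1 and GR differed by -0.10 and -0.13 in atnp01 and by 0.04 and -0.12 in atnp02. The copper chaperone for superoxide dismutase, CCS, was at 7.99 in atnp01 and 8.02 in atnp02, against 7.79 in WT. In sulfur assimilation, the ATP sulfurylase gene APS4 differed by 0.10 in atnp01 and 0.11 in atnp02 and the sulfite reductase gene SIR by -0.02 in atnp01 and -0.11 in atnp02. None of these 6 genes differed by 1.5-fold, as few genes did (2.64% in atnp01 and 1.08% in atnp02), so the count says little about them.

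In glutathione and redox metabolism, GSTU20, a glutathione transferase, was at 9.26 in atnp01 and 9.29 in atnp02, against 9.55 in WT, with differences at 80 mg/L of 0.24 in atnp01 and 1.01 in atnp02. The other 2 transferases that reached log2 6, GSTU18 and GSTU27, differed by 0.10 and -0.04 in atnp01 and by -0.18 and -0.04 in atnp02. The rest of the 7 on the annotation were dimmer and were not counted. Methionine sulfoxide reductases repair oxidised methionine. Of these, MSRB6 was at 5.53 in atnp01 and 5.84 in atnp02, against 6.47 in WT, and at 80 mg/L its differences were -1.25 in atnp01 and -0.74 in atnp02. The exposed levels were dim, at 2.32 in atnp01, 2.83 in atnp02 and 3.57 in WT, so those differences have no exact size. MSRB5 and MSRB9 did not follow MSRB6 without exposure, with differences of -0.52 and 0.02 in atnp01 and 0.14 and 0.47 in atnp02. The chloroplast ascorbate peroxidases SAPX and TAPX differed by -0.20 and -0.10 in atnp01 and by -0.17 and -0.25 in atnp02.

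Expansins and xyloglucan endotransglucosylases loosen and remodel the growing cell wall. Of 29 entries, 12 were on the annotation and 3 reached log2 6. EXPA8 was at 7.51 in atnp01 and 7.79 in atnp02, against 8.30 in WT, and at 80 mg/L it was at 5.30 in atnp01 and 5.65 in atnp02, against 7.24 in WT. XTH19 was at 5.82 in atnp01 and 6.18 in atnp02, against 6.77 in WT, with differences at 80 mg/L of -1.11 in atnp01 and -1.49 in atnp02. Both genes were below WT in both mutants at either dose. EXPA4 was above WT without exposure, at 5.91 in atnp01 and 6.37 in atnp02, against 5.67 in WT, and below it at 80 mg/L, by -1.04 in atnp01 and -0.47 in atnp02.

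Glucosinolates are sulfur-rich defence compounds, and 4 of 21 entries for their synthesis were on the annotation. All 4 reached log2 6. AOP3, of side-chain modification, was at 8.21 in atnp01 and 8.32 in atnp02, against 8.60 in WT, and BCAT4, of methionine chain elongation, was at 9.56 in atnp01 and 9.73 in atnp02, against 9.79 in WT. No member was 1.5-fold from WT without exposure. Few genes were (2.64% in atnp01 and 1.08% in atnp02), so that count says little about the list. At 80 mg/L AOP3 and BCAT4 were above WT in atnp02, by 0.96 and 0.89. Nuclear genes of photosynthesis were close to WT in both mutants, with medians over 8 genes of -0.05 in atnp01 and -0.08 in atnp02. The antenna gene LHCB4.1 was at 10.88 in atnp01 and 10.88 in atnp02, against 10.98 in WT, and the members farthest from WT were PORB, of chlorophyll synthesis, in atnp01 (0.36, against 0.03 in atnp02) and SBPASE, a Calvin cycle enzyme, in atnp02 (-0.23, against -0.07 in atnp01). The cold and drought genes COR47 and LTI30 differed by -0.06 and 0.32 in atnp01 and by -0.06 and -0.12 in atnp02. The alkenal reductase gene AER, entered in the mitochondrial stress list, differed by -0.39 in atnp01 and -0.40 in atnp02. The reference genes GAPC2 and PEX4 differed by 0.08 each in atnp01 and by 0.03 and 0.11 in atnp02.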

How the data were processed

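Transcript levels were measured on Affymetrix ATH1 arrays, 1 per group. The authors deposited log2 values. Per the submitters' processing notes, RMA and Affymetrix Expression Console 1.1 were used. Later steps are not given in those notes. Each array had between 5337 and 6283 repeated values and a minimum between 0.31 and 0.42, so differences between dim values have no exact size.

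Of 22810 probe sets, 64 controls were left out, 13513 had 1 gene, 503 several and 8730 none in the platform annotation. The gene table of assembly TAIR10.1 named 13436, and the platform's name was kept for 77. The probe set with the highest mean stood for its gene. A gene was kept where the brightest unexposed array reached log2 6. Line effects were fitted with limma 3.58.1 (R 4.3.3), with a trend of the error on intensity and p-values adjusted by Benjamini-Hochberg (threshold 0.05). In a seeded draw of simulated data, the share of false calls was under that threshold for atnp01 and above it for atnp02. Python 3.11.15 and pandas 2.3.3 handled tables.

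The comparison and the gene lists were chosen with earlier results of these data known. Genes named are those 2-fold from WT or between mutants, limma calls, and up to 6 members per list. Others, such as most plastid genes, were chosen after their values were seen. Alternatives changed the floor, normalization, fold limit, probe set choice, error model and arrays.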

Additional observations from a re-analysis of the deposited data

Results flagged for a closer look

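A control probe set outside the gene comparisons, AFFX-r2-At-U12639_at, stood apart in both mutants. Unexposed, it was at 7.20 in atnp01 and 7.10 in atnp02, against 1.24 in WT, differences of 5.96 and 5.86 that share the WT array. At 80 mg/L it was at 7.25 in atnp01 and 7.31 in atnp02, against 1.03 in WT, and WT at 40 mg/L had 1.56. The other 63 control probe sets differed from WT by at most 0.77 in atnp01 and 0.87 in atnp02. The annotation used here gives no target for AFFX-r2-At-U12639_at, and its difference was not tested.

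Both mutants were below WT at 0 mg/L and above it at 80 mg/L in 141 of the 1859 genes, of whatever size. Of the genes named for a 2-fold difference without exposure or a limma call, 3 did so. The mutant minus WT difference, averaged over the lines, was higher at 80 than at 0 mg/L by 1.12 for AT2G43620, by 1.17 for AT3G16530 and by 1.14 for rpl14. The difference between the doses was not tested, and the mutants share a WT array at each dose.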

How the results depend on the processing

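The 11 genes 2-fold from WT in atnp01, the 4 in atnp02 and the 2 in both became 21, 7 and 3 with the floor at log2 5, 4, 2 and 2 at log2 7, 63, 32 and 8 with no floor, and 1, 0 and 0 where the dimmest array had to reach log2 6. They were 49, 20 and 13 at 1.5-fold, 3, 1 and 1 at 3-fold, and 18, 8 and 2 over all non-control probe sets. Quantile, loess and median scaling and the mean of a gene's probe sets kept each count within 1.5 times, and AT2G15560 and SWEET1 were the 2 shared genes under each of these 4. The 3 limma calls for atnp01 became 12 with the floor at log2 5, 6 at log2 7 and 15 without the atnp02 arrays. The 1 call for atnp02 became 2 with the floor at log2 5, with no intensity trend and without the atnp01 arrays. The balance of calls did turn in several settings. At 2-fold, atnp02 had 3 genes higher and 4 lower with the floor at log2 5, and 16 and 16 with no floor. It had 9 higher and 11 lower at 1.5-fold, and 0 and 1 at 3-fold. Limma for atnp01 had 5 higher and 7 lower at log2 5, 2 and 4 at log2 7, and 3 and 12 without the atnp02 arrays. The 1 limma call for atnp02 was on the lower side with no floor. No named gene changed direction under the alternatives run for it. Of 45 differences of named genes under other scalings, all 45 kept their side of 2-fold. No paired analysis was possible because each group had 1 array and the labels number no replicates, and dose was a term of the limma fit. The spread among plants is unknown, and a gene near the floor enters or leaves a count with a small change in level.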

Other observations

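Below the floor, 6 genes were 2-fold from WT in the same direction in both mutants without exposure, a group picked for that difference. With no floor, 8 of 13355 genes were so, against 2 of the 1859 at the floor. The 6 genes were dim without exposure, so their differences have no exact size. AT1G76240 was at 4.12 in atnp01 and 4.39 in atnp02, against 5.59 in WT, and at 80 mg/L it was again lower, by -1.67 in atnp01 and -1.08 in atnp02. AT1G42705 was at 4.83 in atnp01 and 4.50 in atnp02, against 3.09 in WT, and at 80 mg/L it was again higher, by 2.23 in atnp01 and 1.69 in atnp02. The plastid genes psbN and atpF were lower by -1.21 and -1.20 in atnp01 and by -1.06 and -1.07 in atnp02. At 80 mg/L psbN and atpF were again lower, by -0.63 and -0.40 in atnp01 and by -1.05 and -0.87 in atnp02. AT5G47980 and CYP718, a cytochrome P450 gene, were above WT by 1.03 and 1.07 in atnp01 and by 1.03 and 1.09 in atnp02. At 80 mg/L their differences were -0.12 and 0.01 in atnp01 and 0.21 and -0.34 in atnp02.

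Of 2238 probe sets at the floor with no gene or several genes, 11 were 2-fold from WT in at least 1 mutant and none in both in the same direction. Probe sets listed with several genes were 3 of the 11, and their names were the plastid genes rps12, rps7 and ycf1, with atnp01 differences of -1.35, -1.12 and -1.09 and atnp02 differences of -0.38, -0.43 and -0.44.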
